A study of Homo sapiens with 18 samples.

Results

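The hypoxia response of OVCAR3-KRAB cells with the XIST guide sgXIST7 was compared with that of cells with the control guide sgControl. For each gene, the change from normoxia to hypoxia in sgControl cells was subtracted from the same change in sgXIST7 cells, on the log2 scale, which is called the interaction here. All 14938 genes that passed the filter on low counts, of 28277 listed, were members of the comparison. It contrasts 12 libraries, 3 in each of 4 groups, within a fit of all 18 libraries of the series. OVCAR3 is an established human ovarian cancer cell line. All cells of the series express dCas9-KRAB, an inactivated Cas9 fused to a repressor domain, which a guide RNA directs to a promoter. The groups were sgControl in normoxia, sgControl after 24 h at 1% oxygen, sgXIST7 in normoxia and sgXIST7 after 24 h at 1% oxygen. Cells with another XIST guide, sgXIST9, were kept under both conditions as well (6 libraries), and through the fit these libraries also entered the filter and the estimate of the spread. Each guide was studied in clonal cells, so that an effect of XIST loss and a difference between clones cannot be told apart. The study calls its replicates biological, but the labels do not say whether they came from separate cultures, and where they did not, the p-values measure only the spread between these libraries.

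In oxygenated cells, prolyl hydroxylases mark the alpha subunits of the hypoxia-inducible factors (HIF) for degradation through VHL. When oxygen is low the alpha subunits persist, pair with ARNT and bind short DNA motifs near genes for glycolysis, angiogenesis, pH control and iron supply. Hypoxia also slows DNA replication and lowers the expression of cell-cycle genes. XIST is the long noncoding RNA that coats the inactive X chromosome.

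Total counts of the 12 libraries ranged from 11794375 to 24906936. XIST, the target of the guide (hg38, chrX:73820651-73852753), had 4900, 11209 and 4213 counts in sgControl cells in normoxia and 1974, 5014 and 1589 in hypoxia. In sgXIST7 cells it had 5, 4 and 1 counts in normoxia and 0, 2 and 3 in hypoxia and was thus near 0 in both sgXIST7 groups. The sgControl hypoxia library of replicate 3 stood apart. In sgControl cells the correlation across genes of log2 CPM, the read count relative to the scaled library size, was 0.987 between hypoxia replicates 1 and 2, and 0.964 and 0.953 between each of them and replicate 3. In sgXIST7 cells replicate 3 stood apart less, at 0.987 between replicates 1 and 2, 0.975 between 1 and 3 and 0.984 between 2 and 3. Deviations of the replicate 3 libraries from their group means correlated between the 3 hypoxia groups at 0.380 to 0.566, so counts are given with and without these libraries. Of 12 ovarian carcinoma markers 6 passed the filter, among them EPCAM and KRT18, while the defining marker MUC16 was at 0 in all 12 libraries compared. PAX8 and WT1, also on this list, had only 18 to 131 and 0 to 14 counts in these libraries. The summed level of the 12 markers was 353 to 388 CPM in sgControl in normoxia and 297 to 348 in hypoxia. In sgXIST7 it was 346 to 408 CPM in normoxia and 460 to 518 in hypoxia. Of the 6 tested, 0 were called in the interaction by edgeR, with 3 at an unadjusted p under 0.05. The 6 endothelial markers summed to at most 1.29 CPM. The 9 leukocyte markers summed to 14.2 to 33.6 CPM in the 12 libraries, mostly CD68. PTPRC and CD3E, also leukocyte markers, had at most 1 count in any library. The 8 fibroblast markers summed to 736 to 1290 CPM in the 12 libraries, mostly COL3A1, and their part in the results below was not tested.

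The hypoxia response of sgXIST7 cells differed from that of sgControl cells in 227 of 14938 genes. It was higher in sgXIST7 for 135 genes (0.904% of those tested) and lower for 92 (0.616%), by edgeR's quasi-likelihood test with an adjusted p under 0.01 and an absolute log2 value above 1, which is what called means from here on. The median interaction over all genes was -0.01. A further 97 genes had an adjusted p under 0.01 with a smaller difference. In sgControl cells hypoxia raised 1681 genes (11.3%) and lowered 1268 (8.49%), and in sgXIST7 cells it raised 2262 (15.1%) and lowered 1815 (12.2%). Most of these genes did not pass the test of a difference. Of 2072 genes called in the same direction in both clones, 36 were called in the interaction.

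**Figure D1:**
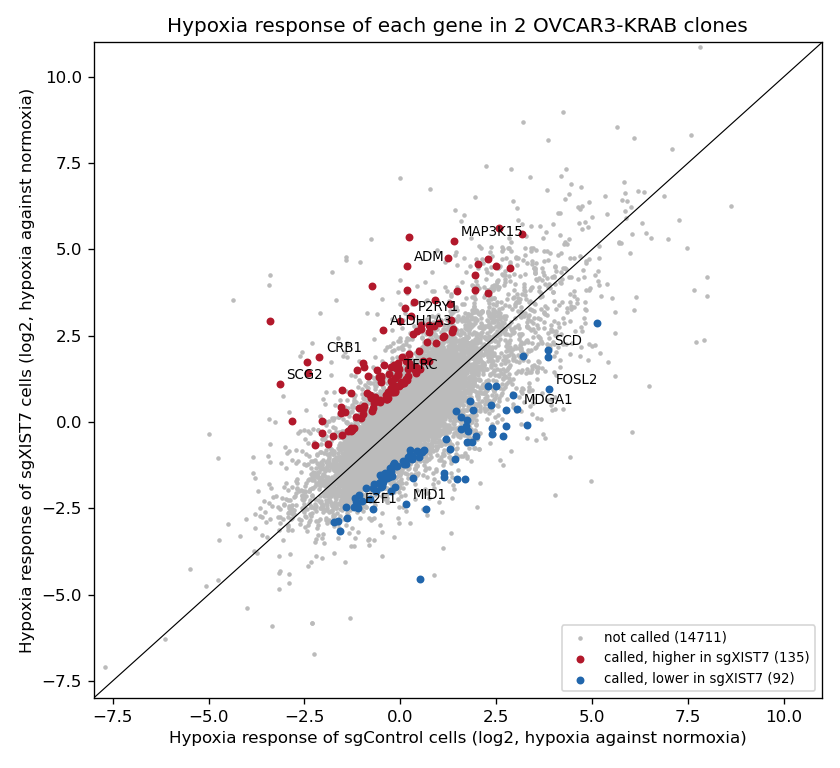
Hypoxia response of each of the 14938 genes tested in sgControl cells (x axis, log2) and in sgXIST7 cells (y axis, log2). Red points are the 135 genes called higher in sgXIST7, blue points the 92 called lower, and the line marks equal responses. The called genes lie on both sides of the line, and ADM and P2RY1 are among them with a response near 0 in sgControl, 0.17 and 0.28.

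The number of calls depended strongly on single libraries. Without the hypoxia libraries of replicate 3, 709 genes were called higher (4.64% of 15278) and 579 lower (3.79%). These included 129 of the 135 and 91 of the 92 genes above, and each of the 227 had the same sign. Most of this gain came with the sgControl library: 673 and 525 genes were called without sgControl hypoxia replicate 3 alone, and 203 and 145 without sgXIST7 hypoxia replicate 1. Without any 1 of the other 10 libraries, the counts fell to 55 to 103 and 25 to 61. A fit of only the 12 libraries compared called 53 and 26 genes. Of the 227 genes, 40 called higher and 17 called lower were called in all 20 other fits. Called in every fit means these 20 below, and a call that was lost is given with the libraries left out.

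**Figure D2:**
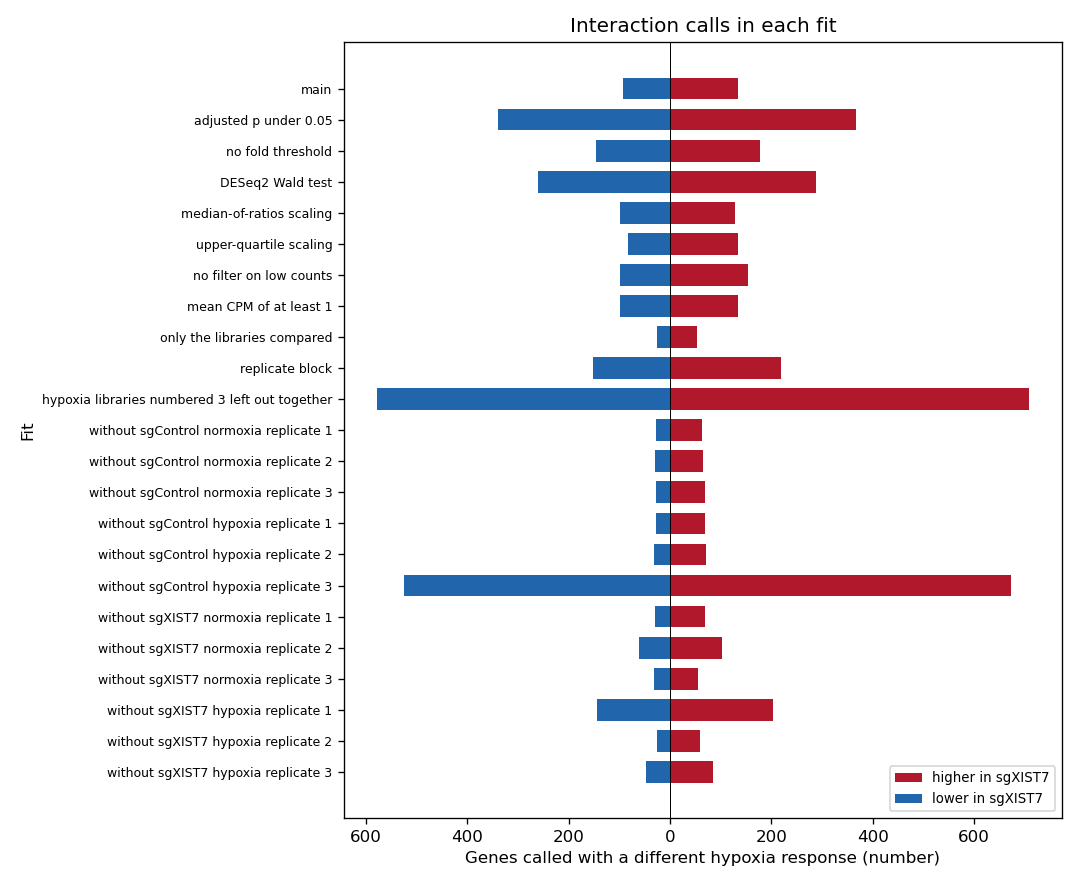
Number of genes called with a different hypoxia response (x axis) in each fit (y axis), to the right for genes higher in sgXIST7 and to the left for genes lower. The bars are longest in both fits without sgControl hypoxia replicate 3, with 673 and 709 genes to the right.

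The called genes fell into several classes. Of the 135 genes, 66 were called up in sgXIST7 only, 18 were called up in both clones, 20 were called down in sgControl only and 6 moved in opposite directions. Neither response was called for the other 25. Of the 92 genes with a lower interaction, 44 were called down in sgXIST7 only, 12 were called down in both clones, 23 were called up in sgControl only, 6 were called up in both and 1 moved in opposite directions. In normoxia, 31 of the 135 genes were called lower in sgXIST7 than in sgControl and 11 higher. Of the 92 genes, 32 were called higher in sgXIST7 in normoxia and 0 lower. The background for the normoxia difference was 4.67% of genes called higher and 3.09% called lower, but this difference shares libraries with the interaction, so nothing is read from the shares.

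Most hypoxia-induced genes rose in both clones. Of 43 hypoxia-induced genes, 40 were called up in sgControl (median log2 response 3.25) and 42 in sgXIST7 (median 3.45). Of all genes tested, 11.3% and 15.1% were called up. The median interaction of the 43 genes was 0.27, 25 were higher in sgXIST7 and 18 lower, and 1, ADM, was called. SLC2A1, the main glucose transporter, had 18.8, 18.6 and 17.1 CPM in normoxia and 202.6, 282.1 and 194 CPM in hypoxia in sgControl cells. It had 22.5, 33.9 and 25.2 CPM in normoxia and 258.8, 346.5 and 400.6 CPM in hypoxia in sgXIST7 cells. All hypoxia values lay above all normoxia values in each clone, and the interaction was -0.02 ± 0.26 (SE, adjusted p = 0.974). NDRG1, a stress-induced gene, rose by log2 5.17 and 5.09 in sgControl and sgXIST7, PDK1, which limits pyruvate entry into mitochondria, by 3.47 and 2.88, and ANKRD37 by 5.92 and 6.4. VEGFA, the main angiogenic ligand, rose by log2 2.41 and 3.41, with an interaction of 1.00 ± 0.38 (SE, adjusted p = 0.099). Of the 20 other fits, it was called only in the one without the hypoxia libraries of replicate 3 (1.08, adjusted p = 0.0016). The hypoxia-induced list had 7 of 43 genes called higher and 3 lower in that fit, against 4.64% and 3.79% of all genes tested.

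**Figure D3:**
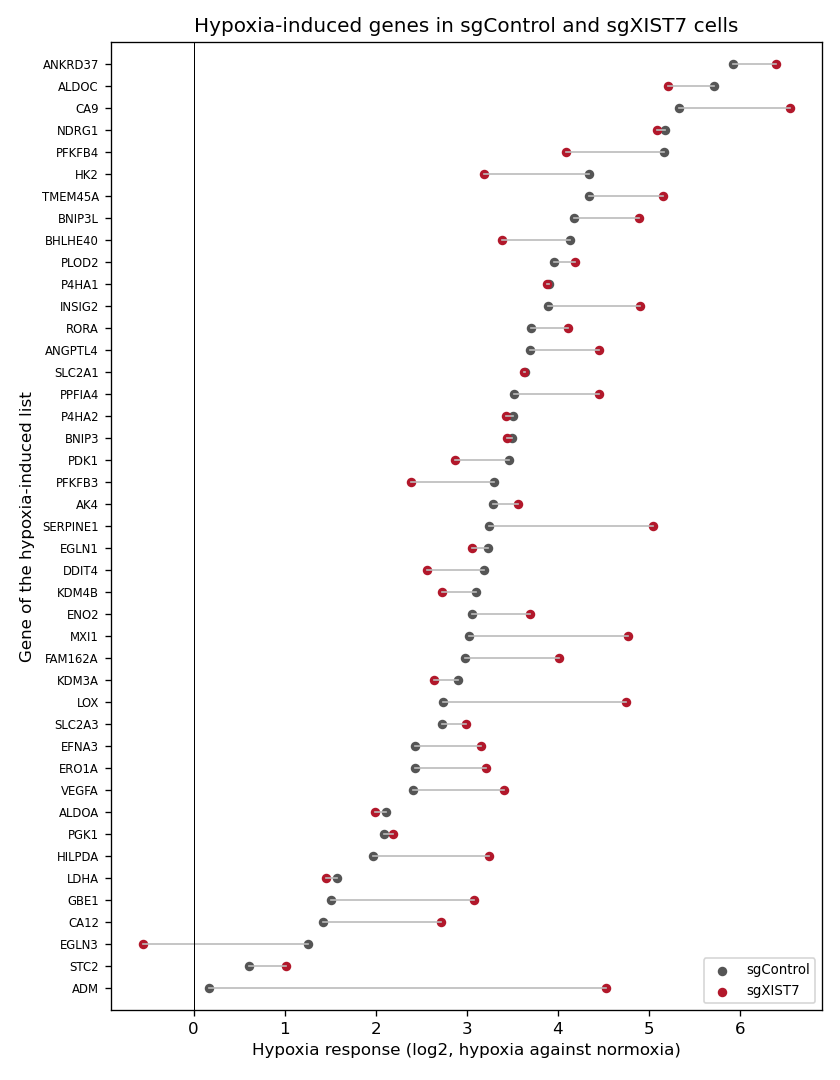
Hypoxia response (x axis, log2, hypoxia against normoxia) of the 43 hypoxia-induced genes (y axis) in sgControl cells (grey) and sgXIST7 cells (red). The pairs lie close for most genes, and ADM at the bottom is the pair set farthest apart, at 0.17 and 4.53.

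Of the HIF subunits and oxygen sensors, 11 were tested and 0 were called in the interaction by edgeR, with 3 at an unadjusted p under 0.05 and a median of 0.05. Transcripts of HIF1A, an alpha subunit, were at 246.1, 240.7 and 249.3 CPM in normoxia and 184.8, 213 and 192.8 CPM in hypoxia in sgControl cells. In sgXIST7 cells they were at 795.2, 691.9 and 782.9 CPM in normoxia and 474.2, 477.9 and 518.8 CPM in hypoxia. They were higher in sgXIST7 than in sgControl under both conditions and lower in hypoxia than in normoxia in both clones, and the interaction was -0.31 ± 0.12 (SE, adjusted p = 0.112). EPAS1, the other main alpha subunit, rose in both clones, by log2 2.29 and 2.93, with an interaction of 0.64 ± 0.28 (SE, adjusted p = 0.158). EGLN3, a prolyl hydroxylase that HIF itself induces, was at 3.69, 4.099 and 4.31 CPM in normoxia and 12.1, 13.9 and 2.75 CPM in hypoxia in sgControl cells. Its sgXIST7 values were 1.297, 1.83 and 1.48 CPM in normoxia and 1.39, 1.09 and 0.518 CPM in hypoxia. The interaction of EGLN3 was -1.82 ± 0.68 (SE, adjusted p = 0.096), and it was called without the hypoxia libraries of replicate 3 (-1.98, adjusted p = 0.000427) or without the sgControl one alone. CA9, a carbonic anhydrase at the cell surface that serves as a hypoxia marker, had 1, 0 and 0 counts in sgControl cells in normoxia and 11, 6 and 33 in hypoxia. In sgXIST7 cells it had 4, 7 and 5 counts and then 290, 517 and 412. CA9 was higher in hypoxia in both clones and far higher in sgXIST7, but since the sgControl normoxia group lay under the floor of 3 counts per library no fold is given for its interaction (adjusted p = 0.871).

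Of 29 glycolysis and glycogen genes tested, 22 were called up in sgControl and 24 in sgXIST7. The shares of all genes called up were 11.3% and 15.1%. In the interaction, 0 of the 29 were called by edgeR, with 8 at an unadjusted p under 0.05 and a median of 0.01. HK2, the hexokinase that starts glycolysis in many cancer cells, was at 37.03, 36.04 and 34.4 CPM in normoxia and 743.1, 742.9 and 695.7 CPM in hypoxia in sgControl. It was at 92.4, 108.7 and 104.6 CPM in normoxia and 660.9, 1014 and 1123 CPM in hypoxia in sgXIST7 cells, which started higher and ended in the same range. The interaction of HK2, -1.15 ± 0.25 (SE, adjusted p = 0.0108), missed the threshold, and it was called in 8 of the 20 other fits, among them DESeq2 (adjusted p = 0.000687).

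ADM had the largest interaction among genes with a mean of at least 100 counts and no group at the floor. ADM (chr11:10305073-10307397) encodes adrenomedullin, a vasodilator peptide and a well-known hypoxia target. In sgControl cells it was at 273.5, 262.7 and 325 CPM in normoxia and 266.2, 325 and 379.5 CPM in hypoxia. In sgXIST7 cells it was at 8.604, 9.88 and 5.92 CPM in normoxia and 141.3, 186.5 and 236.9 CPM in hypoxia. The sgControl values in normoxia and hypoxia overlapped at a high level, while in sgXIST7 all normoxia values were low and all hypoxia values higher, though still under those of sgControl. The interaction was 4.36 ± 0.36 (SE, adjusted p = 5.04e-06), and it was called in every fit. CALCRL (chr2:187341965-187448252), which encodes the receptor for adrenomedullin and was picked with its values in view, was at 94.4, 87.1 and 90.5 CPM in normoxia and 96.5, 86.5 and 116.2 CPM in hypoxia in sgControl. In sgXIST7 cells CALCRL was at 10.1, 8.89 and 11.1 CPM in normoxia and 36.8, 35.5 and 31.2 CPM in hypoxia. As for ADM, the sgControl values overlapped and the sgXIST7 values rose from a low level, with an interaction of 1.64 ± 0.18 (SE, adjusted p = 0.00011). The receptor partners RAMP1, RAMP2 and RAMP3 had at most 2 counts in any library.

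P2RY1 (chr3:152835131-152841439), a purinergic receptor for ADP, followed the same order. It was at 25.6, 26.2 and 29.2 CPM in normoxia and 33.2, 28.4 and 36.7 CPM in hypoxia in sgControl cells. The sgXIST7 cells had 3.42, 2.61 and 2.61 CPM in normoxia and 18.7, 25.4 and 29.5 CPM in hypoxia. Its sgControl values overlapped between conditions, the sgXIST7 normoxia values lay far under them, and the hypoxia values of both clones overlapped. The interaction was 2.80 ± 0.23 (SE, adjusted p = 5.04e-06), called in every fit. Among 14 secreted angiogenic and vasoactive factors, ADM was the only one called, 9 were higher in sgXIST7 and the median was 0.86, against -0.01 over all genes. IGFBP3, a binding protein for insulin-like growth factors, had 1.97 (adjusted p = 0.0162) and PDGFB, a growth factor for pericytes, 1.38 (adjusted p = 0.0342), neither of which passed the threshold.

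The hypoxia response of 12 named genes was called in only 1 of these clones and their interaction in every fit. For FOSL2 and RAB6B the other clone missed only the fold threshold of the edgeR test. FOSL2 had log2 0.97 in sgXIST7 (adjusted p = 0.00046) and RAB6B 0.91 in sgControl (adjusted p = 0.00456). The promoters of 5 of the 12 genes, ADM, P2RY1, FOSL2, NFKBIZ and PRKAA2, are shown as examples, picked with their sequences known. Each is the 250 bases upstream of the RefSeq start (GRCh38.p14), read on the strand of the gene, here the plus strand for all 5. They lie at chr11:10304823-10305072, chr3:152834881-152835130, chr2:28392608-28392857, chr3:101827740-101827989 and chr1:56645064-56645313. Capitals mark ACGTG or GCGTG, the core letters of the HIF motif, on either strand, so that CACGT and CACGC mark the opposite strand.
ADM: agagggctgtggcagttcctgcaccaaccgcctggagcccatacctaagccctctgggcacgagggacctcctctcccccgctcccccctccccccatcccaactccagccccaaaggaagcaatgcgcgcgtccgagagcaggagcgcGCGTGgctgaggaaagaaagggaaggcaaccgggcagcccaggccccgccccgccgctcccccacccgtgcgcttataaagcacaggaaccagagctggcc
P2RY1: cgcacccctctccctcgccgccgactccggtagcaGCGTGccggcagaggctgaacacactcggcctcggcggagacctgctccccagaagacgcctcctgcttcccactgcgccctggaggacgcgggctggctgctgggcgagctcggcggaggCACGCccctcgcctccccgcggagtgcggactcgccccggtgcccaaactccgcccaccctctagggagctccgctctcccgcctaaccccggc
FOSL2: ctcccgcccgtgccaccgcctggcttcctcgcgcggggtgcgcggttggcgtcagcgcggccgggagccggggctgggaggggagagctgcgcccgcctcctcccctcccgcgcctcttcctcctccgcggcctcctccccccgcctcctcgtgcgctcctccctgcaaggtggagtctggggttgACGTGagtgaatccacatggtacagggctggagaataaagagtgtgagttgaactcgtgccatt
NFKBIZ: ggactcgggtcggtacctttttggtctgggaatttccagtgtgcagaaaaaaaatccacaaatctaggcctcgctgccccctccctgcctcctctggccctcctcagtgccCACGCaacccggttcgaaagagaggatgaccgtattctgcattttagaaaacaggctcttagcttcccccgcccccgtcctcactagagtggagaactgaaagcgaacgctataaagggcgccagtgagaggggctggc
PRKAA2: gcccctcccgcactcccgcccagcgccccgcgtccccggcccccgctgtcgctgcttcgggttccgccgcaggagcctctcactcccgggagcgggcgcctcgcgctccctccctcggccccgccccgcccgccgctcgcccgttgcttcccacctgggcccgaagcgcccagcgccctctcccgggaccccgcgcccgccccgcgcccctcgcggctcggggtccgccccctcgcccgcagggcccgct
Matches lay at -101 in ADM, at -215 and -94 in P2RY1, at -64 in FOSL2 and at -139 in NFKBIZ, counted from the start to the first base of the match, and PRKAA2 holds none. Of the 10 of these 12 genes with an entry used here, 8 hold a match, and PRKAA2 and MOXD1 do not. MAFA and RAB26 were left out of this count, and whether their promoters hold a match was not tested. The 8 of 10 is thus not a share of all 12 genes. Such a match is common. It was present in 43.1% of all 27305 promoters of this length in the table, in 56.9% of the 11114 genes tested that have an entry, in 52.4% of 103 genes called higher and in 55.2% of 67 called lower. Of the 37 hypoxia-induced genes with an entry, 81.1% had one. A match describes these letters and is not a binding site.

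Of the leading genes, SCG2, RAB26 and RAB6B act in secretion or vesicle traffic. SCG2 (chr2:223596940-223602361), secretogranin II of dense-core vesicles, was at 9.79, 14.2 and 10.96 CPM in normoxia and 1, 1.39 and 1.59 CPM in hypoxia in sgControl. In sgXIST7 cells SCG2 was at 21.8, 22.4 and 12.8 CPM in normoxia and 49.9, 39.96 and 32.3 CPM in hypoxia. It fell in sgControl, rose in sgXIST7, and in normoxia the clones overlapped. The interaction was 4.25 ± 0.33 (SE, adjusted p = 4.93e-06). RAB26 (chr16:2148144-2154161), a small GTPase of secretory granules, was at 8.86, 8.199 and 6.43 CPM in normoxia and 1.5, 0.695 and 1.15 CPM in hypoxia in sgControl. For sgXIST7 the values were 13.3, 21.7 and 13.2 CPM in normoxia and 15.2, 16.04 and 17.7 CPM in hypoxia. RAB26 fell in sgControl and did not separate between conditions in sgXIST7, and its interaction was 2.85 ± 0.36 (SE, adjusted p = 0.000309). RAB6B (chr3:133824236-133895882), a GTPase of Golgi transport, was higher in hypoxia in both clones but started lower in sgXIST7, with 2.897, 8.33 and 3.92 CPM in normoxia and 49.5, 60.9 and 63.5 CPM in hypoxia. In sgControl it had 11.7, 13.1 and 12.6 CPM in normoxia and 21.4, 22.7 and 26.4 CPM in hypoxia. The interaction was 2.62 ± 0.35 (SE, adjusted p = 0.000407). All 3 genes were called in every fit.

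**Figure D4:**
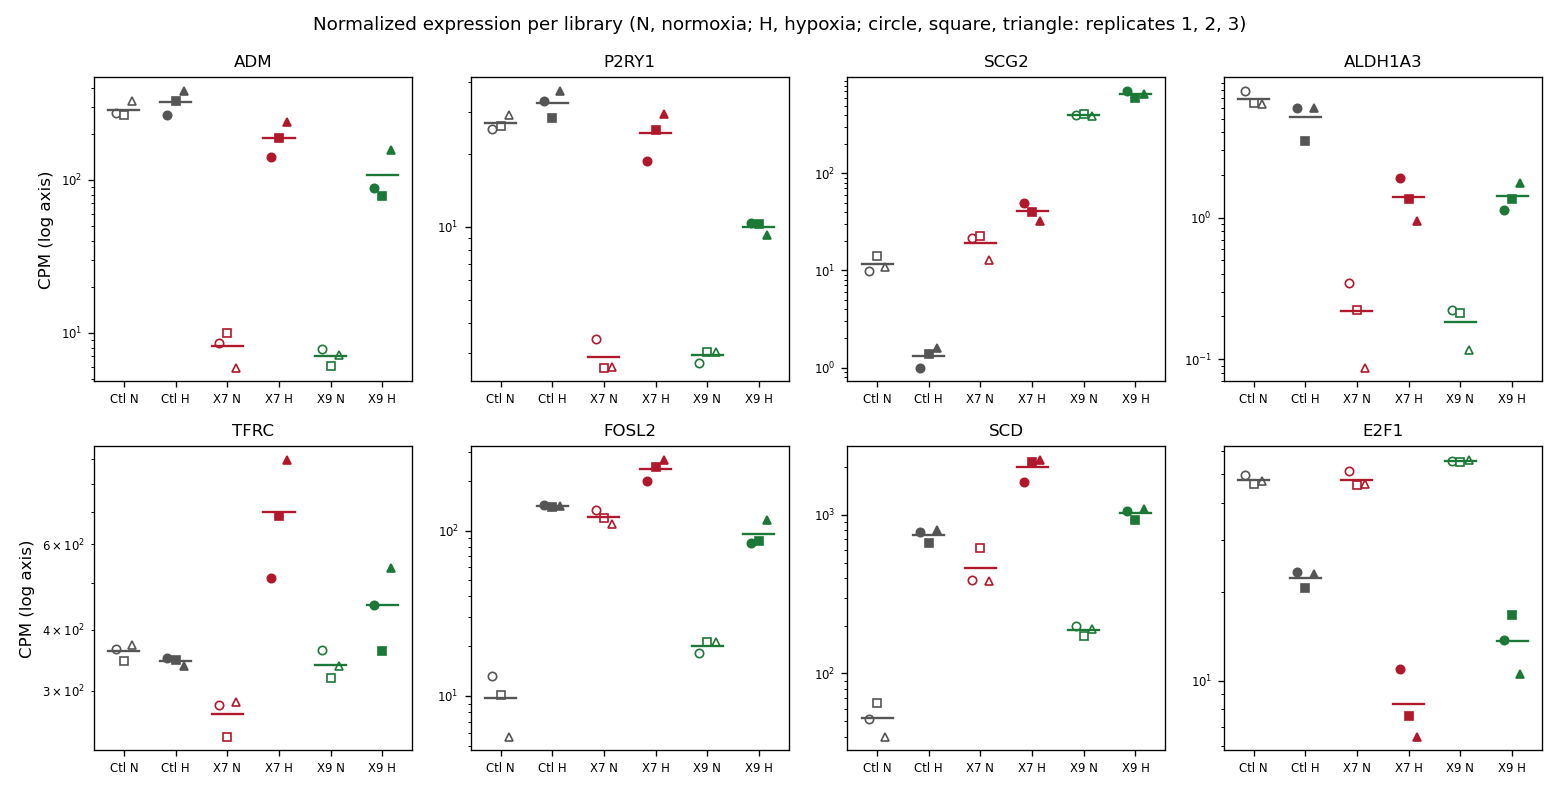
Normalized expression (y axis, CPM, log axis) of 8 genes in each library of the sgControl (Ctl, grey), sgXIST7 (X7, red) and sgXIST9 (X9, green) cells in normoxia (N, open) and hypoxia (H, filled). Symbols are replicates 1 to 3, short lines group means. ADM and P2RY1 are flat in sgControl and rise in sgXIST7, SCG2 falls in sgControl and rises in sgXIST7, and FOSL2 and SCD have a smaller response in sgXIST7, from a higher level.

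Of the protein kinases, PRKAA2 (chr1:56645314-56715335), a catalytic subunit of the energy sensor AMPK, was at 79.7, 85.8 and 76.1 CPM in normoxia and 78.7, 73.05 and 111.9 CPM in hypoxia in sgControl. The sgXIST7 libraries had 1.56, 3.61 and 5.53 CPM in normoxia and 21.8, 36.3 and 47.7 CPM in hypoxia. All sgXIST7 values lay under those of sgControl under the same condition, and the interaction was 3.17 ± 0.46 (SE, adjusted p = 0.000883). MAP3K15 (chrX:19360058-19515261), a kinase of the ASK family, was at 5.84, 8.04 and 6.95 CPM in normoxia and 14.7, 14.7 and 26.3 CPM in hypoxia in sgControl. It was at 0.259, 0.722 and 0.61 CPM in normoxia and 11.3, 22.8 and 26.6 CPM in hypoxia in sgXIST7. It rose in both clones and the hypoxia values overlapped, with an interaction of 3.85 ± 0.55 (SE, adjusted p = 0.000709). Both were called in every fit.

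CRB1 (chr1:197201504-197478455), an apical polarity protein, was at 1.01, 1.24 and 1.89 CPM in normoxia and 0.188, 0.347 and 0.443 CPM in hypoxia in sgControl. In sgXIST7 cells CRB1 was at 19.98, 22.3 and 19.5 CPM in normoxia and 71.95, 69.3 and 84.6 CPM in hypoxia. It fell in the first clone and rose in the other, with an interaction of 3.99 ± 0.39 (SE, adjusted p = 3.29e-05). POU2F3 (chr11:120236638-120319945), the transcription factor of tuft cells, likewise fell in sgControl (3.15, 1.62 and 1.89 to 1.31, 0.993 and 0.709 CPM). In sgXIST7 it rose from 12.97, 7.997 and 9.54 to 25.5, 34.4 and 26.5 CPM, and the interaction was 2.62 ± 0.40 (SE, adjusted p = 0.0013). MOXD1, a monooxygenase-like protein, had an interaction of 3.14 ± 0.44 (SE, adjusted p = 0.000709) and C2orf72 had 3.05 ± 0.33 (SE, adjusted p = 0.000101), and these 4 genes were called in every fit. CASKIN1, a synaptic scaffold protein, had 2.92 ± 0.55 (SE, adjusted p = 0.00559), but the call was lost in 9 of 12 fits that left out 1 library, with the highest adjusted p, 0.0204, without sgControl normoxia replicate 1.

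The transcription factors FOSL2 and MAFA were among the genes with the lowest interaction. FOSL2 (chr2:28392858-28417317), a Fos family subunit of AP-1, was at 13.2, 10.1 and 5.68 CPM in normoxia and 142.6, 140 and 140.4 CPM in hypoxia in sgControl. In sgXIST7 cells FOSL2 was at 132.7, 119.2 and 110.4 CPM in normoxia and 199.1, 242.4 and 267.9 CPM in hypoxia. Hypoxia values lay above normoxia values in each clone, and the sgXIST7 normoxia values, under the sgControl hypoxia values, were far above the sgControl normoxia ones. The interaction was -2.90 ± 0.29 (SE, adjusted p = 4.16e-05), called in every fit. MAFA (chr8:143428064-143430732), a factor best known from pancreatic beta cells, went from 1.68, 1.08 and 1.84 to 12.2, 13.7 and 5.41 CPM in sgControl. In sgXIST7 it was at 10.6, 9.497 and 7.49 CPM in normoxia and 8.79, 8.74 and 8.03 CPM in hypoxia, which overlapped, and the interaction was -2.87 ± 0.39 (SE, adjusted p = 0.000528), called in every fit.

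NFKBIZ, MAP3K8 and CARD9, which act in NF-kB or related kinase signaling, had a lower interaction. NFKBIZ (chr3:101827990-101861022), an atypical nuclear inhibitor and cofactor of NF-kB, was at 6.51, 5.26 and 5.28 CPM in normoxia and 22.2, 23.6 and 11.5 CPM in hypoxia in sgControl. The sgXIST7 cells were at 84.4, 83.8 and 82.04 CPM in normoxia and 60.7, 71.6 and 76.4 CPM in hypoxia. It rose in sgControl. In sgXIST7 it started far higher and had lower values in hypoxia, but that response was not called (log2 -0.26, adjusted p = 0.212). The interaction was -2.02 ± 0.27 (SE, adjusted p = 0.000414). MAP3K8 (chr10:30434021-30461833), the kinase TPL2 that activates MEK, rose in both clones, from 0.671, 0.619 and 0.459 to 7.69, 9.63 and 7.71 CPM in sgControl. In sgXIST7 it went from 8.73, 7.28 and 6.67 to 23.8, 29.7 and 30.6 CPM, with an interaction of -1.95 ± 0.28 (SE, adjusted p = 0.000883). Both were called in every fit. CARD9, an adaptor that links innate receptors to NF-kB, had an interaction of -2.08 ± 0.37 (SE, adjusted p = 0.00389), lost in 8 of 12 fits without 1 library (at most 0.0161, without sgControl normoxia replicate 1).

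Among receptors, ligands and other proteins, FGFR3 (chr4:1793293-1808872), a fibroblast growth factor receptor, was at 3.02, 3.79 and 2.98 CPM in normoxia and 15.6, 13.7 and 6.11 CPM in hypoxia in sgControl. In sgXIST7 FGFR3 was at 28.4, 32.2 and 23.4 CPM in normoxia and 16.8, 17.1 and 22.8 CPM in hypoxia. It rose in sgControl. In sgXIST7 its values were lower in hypoxia, but that response was not called (log2 -0.58, adjusted p = 0.0564). The interaction was -2.45 ± 0.38 (SE, adjusted p = 0.00169). WNT9A (chr1:227918656-227947932), a Wnt ligand, rose from 1.61, 1.86 and 1.84 to 11.4, 9.18 and 6.91 CPM in sgControl. In sgXIST7 the values went from 5.19, 6.44 and 5.88 to 7.45, 8.16 and 8.98 CPM, and the interaction was -1.89 ± 0.29 (SE, adjusted p = 0.00166). FGFR3 and WNT9A were called in every fit. MID1 (chrX:10445310-10833683), an X-linked ubiquitin ligase bound to microtubules, was at 77.3, 71.1 and 72.7 CPM in normoxia and 70.01, 102.4 and 72.9 CPM in hypoxia in sgControl. It fell in sgXIST7, with 42.5, 22.1 and 31.3 CPM in normoxia and 8.6, 4.71 and 4.92 CPM in hypoxia. The interaction was -2.53 ± 0.49 (SE, adjusted p = 0.0064). That of MDGA1, an adhesion protein of neurons, was -2.68 ± 0.48 (SE, adjusted p = 0.00392). MGAT4A, which branches N-glycans, had -2.16 ± 0.44 (SE, adjusted p = 0.00855) and TTC7A, a scaffold of a phosphatidylinositol kinase, -1.97 ± 0.37 (SE, adjusted p = 0.00495). These last calls were lost without single libraries: in 9 of 12 fits for MID1 (at most 0.0257, without sgXIST7 hypoxia replicate 2), 7 of 12 for MDGA1 (0.017, without sgControl normoxia replicate 1), 10 of 12 for MGAT4A (0.0275, without sgControl normoxia replicate 1) and 9 of 12 for TTC7A (0.0177, without sgControl normoxia replicate 1).

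Immediate early genes are switched on fast by growth factors and stress. Of 20 AP-1 and EGR factors tested, IER2 and EGR2 were called higher and FOSL2 lower, and the median was 0.15. The shares of all genes called were 0.904% higher and 0.616% lower. IER2 was at 55.2, 49.2 and 59.4 CPM in normoxia and 57.1, 65.7 and 43.95 CPM in hypoxia in sgControl. It was at 39.2, 31.7 and 37.03 CPM in normoxia and 79.6, 83.8 and 77.2 CPM in hypoxia in sgXIST7, where all hypoxia values lay above all others, and the interaction was 1.13 ± 0.19 (SE, adjusted p = 0.00257). Without sgControl hypoxia replicate 3 its log2 value was 0.99, under the fold threshold, and it was not called in the fit of only the libraries compared. EGR2 had 49, 48 and 66 counts in sgControl in normoxia and 63, 105 and 32 in hypoxia. In sgXIST7 it had 2, 3 and 3 counts in normoxia, at the floor, and 22, 39 and 34 in hypoxia, so that no fold is given (adjusted p = 0.00874, and up to 0.031 without sgXIST7 normoxia replicate 1). FOS and JUN, the canonical AP-1 subunits, rose in both clones by log2 3.54 and 5.38 in sgControl and 4.13 and 6.01 in sgXIST7.

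Of 32 DNA replication genes tested, 22 were called down in sgControl (median log2 response -1.26) and 28 in sgXIST7 (median -1.95). In the interaction, 29 of 32 were lower in sgXIST7, the median was -0.73 and 4 were called lower, E2F1, CCNE2, MCM3 and GINS4. Of all 14938 genes tested, 7567 were lower and 0.616% were called lower. Regarding the responses of all genes, 8.49% were called down in sgControl and 12.2% in sgXIST7. E2F1 (chr20:33675477-33686385), the transcription factor of S phase entry, was at 49.6, 46.3 and 47.6 CPM in normoxia and 23.3, 20.5 and 23.04 CPM in hypoxia in sgControl. In sgXIST7 E2F1 was at 51.3, 46.1 and 46.2 CPM in normoxia and 10.99, 7.61 and 6.47 CPM in hypoxia. The normoxia values of the clones overlapped, and each sgXIST7 hypoxia value lay under each sgControl one. The interaction was -1.40 ± 0.23 (SE, adjusted p = 0.0026). MCM3 (chr6:52264015-52284742), a subunit of the replicative helicase, fell from 242.5, 223.2 and 239.5 to 72.3, 69.3 and 87.5 CPM in sgControl. In sgXIST7 it fell from 281.7, 263.6 and 273.2 to 48.02, 32.3 and 30.7 CPM, with an interaction of -1.26 ± 0.21 (SE, adjusted p = 0.00286). CCNE2, a cyclin of the G1 to S transition, had -1.39 ± 0.27 (SE, adjusted p = 0.00594) and GINS4, a helicase subunit, -1.09 ± 0.23 (SE, adjusted p = 0.0092). The calls of E2F1 and MCM3 were lost without sgXIST7 hypoxia replicate 2 (adjusted p = 0.0126 and 0.013), that of MCM3 also without sgControl normoxia replicate 2 and in the fit of only the libraries compared, and those of CCNE2 and GINS4 in 9 of 12 and 9 of 12 fits (at most 0.0202, without sgControl hypoxia replicate 1, and 0.0331, without sgXIST7 hypoxia replicate 2).

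Of 25 mitosis genes tested, 24 were called down in sgControl (median -1.39) and 25 in sgXIST7 (median -2.05), 22 had a lower interaction, and the median of the interaction was -0.57. TPX2, a spindle assembly factor, was the only one called, at -1.02 ± 0.22 (SE, adjusted p = 0.00934), and its call was lost in 10 of 12 fits without 1 library (at most 0.0324, without sgXIST7 hypoxia replicate 2). The shares of all genes called down were 8.49% in sgControl and 12.2% in sgXIST7. A lower interaction was found in 7567 of all 14938 genes, and 0.616% were called lower. MYBL2 (chr20:43667019-43716496), a cell-cycle transcription factor picked in the same way as CALCRL, was called in every fit. It went from 137.6, 137.1 and 148.1 to 47.8, 49.9 and 43.1 CPM in sgControl. In sgXIST7 it went from 164, 180 and 178.6 to 22.2, 16.6 and 20.2 CPM, and the interaction was -1.56 ± 0.20 (SE, adjusted p = 0.000309). ODC1, the first enzyme of polyamine synthesis and picked likewise, went from 320.5, 228.6 and 305.6 to 131.5, 118.5 and 114.4 CPM in sgXIST7. In sgControl it was at 319, 286.1 and 344.3 CPM in normoxia and 385.5, 370.3 and 297.1 CPM in hypoxia, which overlapped, and the interaction was -1.38 ± 0.19 (SE, adjusted p = 0.000687). In bulk RNA, fewer cycling cells and less RNA of these genes per cell cannot be told apart.

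**Figure D5:**
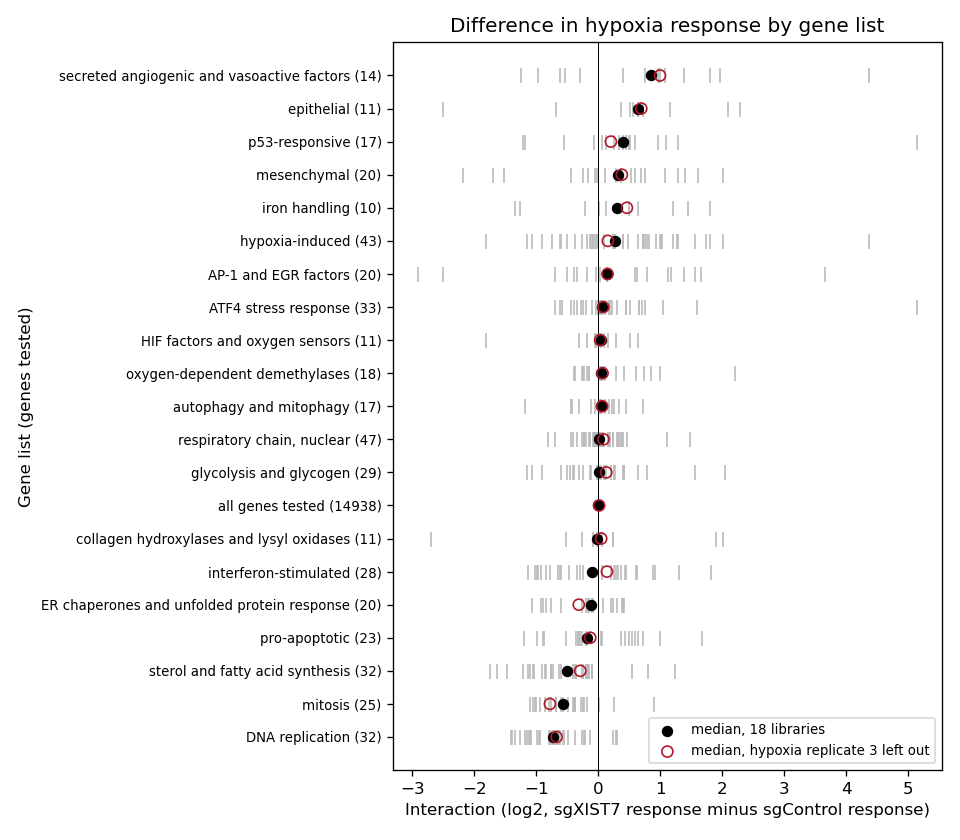
Interaction (x axis, log2, sgXIST7 response minus sgControl response) of the genes in lists with at least 10 genes tested (y axis). Ticks are genes, black points list medians in the fit of 18 libraries and open circles medians without the hypoxia libraries of replicate 3. The DNA replication and mitosis medians lie lowest, at -0.73 and -0.57, and that of secreted angiogenic and vasoactive factors highest, at 0.86.

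Of 32 sterol and fatty acid synthesis genes tested, 29 were lower in the interaction, with a median of -0.50 (-0.29 without the hypoxia libraries of replicate 3). Of these, 2 were called lower, among them SCD, and TM7SF2 was called higher. Among all 14938 genes tested, 7567 were lower, 0.616% were called lower and 0.904% called higher. SCD (chr10:100347233-100364826), the desaturase that makes monounsaturated fatty acids with oxygen, was at 51.5, 64.9 and 40.01 CPM in normoxia and 780.6, 663.2 and 806.4 CPM in hypoxia in sgControl. In sgXIST7 SCD was at 389.4, 621.2 and 385.5 CPM in normoxia and 1615, 2144 and 2220 CPM in hypoxia. It rose in each clone and was higher in sgXIST7 under each condition. The interaction was -1.75 ± 0.27 (SE, adjusted p = 0.00153), which was not called in the fit of only the libraries compared. TM7SF2, a sterol reductase, had 1.24 ± 0.24 (SE, adjusted p = 0.00635), lost in 9 of 12 fits without 1 library (at most 0.0221, without sgXIST7 normoxia replicate 3).

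Of 10 iron handling genes tested, TFRC and SLC11A2 were called higher, against 0.904% of all genes called higher, and the median was 0.31. TFRC (chr3:196049284-196082090), the transferrin receptor, was at 366.3, 345.5 and 373.2 CPM in normoxia and 350.3, 346.9 and 337.8 CPM in hypoxia in sgControl. In sgXIST7 TFRC was at 279.8, 241.4 and 284.2 CPM in normoxia and 511.7, 687.7 and 894.9 CPM in hypoxia. The sgControl values overlapped between conditions, and all sgXIST7 hypoxia values lay above them. The interaction was 1.45 ± 0.23 (SE, adjusted p = 0.00189), called in every fit. SLC11A2, which carries ferrous iron, was lower in hypoxia in sgControl, at 70.98, 65.8 and 68.1 CPM in normoxia and 33.4, 30.9 and 40.05 CPM in hypoxia. In sgXIST7 it was at 68.8, 70.03 and 70.4 CPM in normoxia and 60.9, 80.02 and 106 CPM in hypoxia, which overlapped. The interaction was 1.21 ± 0.23 (SE, adjusted p = 0.00571), and the call was lost in 10 of 12 fits without 1 library (at most 0.0178, without sgControl normoxia replicate 1). FTH1 and FTL, the ferritin chains, had 0.12 and 0.64 (adjusted p = 0.761 and 0.0499).

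GDF15, a stress cytokine on the ATF4 and p53 lists, had 36, 39 and 57 counts in sgControl in normoxia and 27, 44 and 75 in hypoxia. In sgXIST7 it had 1, 9 and 5 and 63, 306 and 161 counts, and its interaction was 5.14 ± 1.09 (SE, adjusted p = 0.00939). It was the only call among 33 ATF4 genes (median 0.07) and 17 p53-responsive genes (median 0.40). In the hypoxia libraries of replicate 3 the ATF4 genes were higher than in replicates 1 and 2 by a median log2 of 0.62 in sgControl and 0.85 in sgXIST7, and the part of this in the result was not tested. CASP8, the caspase of death receptors, was at 80.6, 77.7 and 84.5 CPM in normoxia and 65.3, 48.9 and 83.3 CPM in hypoxia in sgControl. It was at 58.4, 51.4 and 53.3 CPM in normoxia and 113.1, 147.7 and 163.8 CPM in hypoxia in sgXIST7, where all hypoxia values lay above all others. The interaction was 1.68 ± 0.31 (SE, adjusted p = 0.00483), the only call among 23 pro-apoptotic genes, whose median was -0.18. TJP3, a tight junction scaffold, fell in sgControl from 8.72, 7.35 and 7.81 to 1.62, 1.04 and 3.46 CPM. In sgXIST7 it was at 22.6, 32.3 and 25.3 CPM in normoxia and 23.5, 27.2 and 31.9 CPM in hypoxia, and the interaction was 2.09 ± 0.44 (SE, adjusted p = 0.00934), the only call among 11 epithelial genes (median 0.63). CRELD2, a chaperone of the endoplasmic reticulum, had -1.07 ± 0.22 (SE, adjusted p = 0.00786), the only call among 20 genes of the unfolded protein response (median -0.12). Each of these calls was lost without single libraries: GDF15 in 10 of 12 fits (at most 0.031, without sgXIST7 normoxia replicate 1), CASP8 in 10 of 12 (0.0164, without sgXIST7 normoxia replicate 3), TJP3 in 10 of 12 (0.0324, without sgControl hypoxia replicate 1) and CRELD2 in 9 of 12 (0.0237, without sgControl normoxia replicate 3). Among all genes tested, 0.904% were called higher and 0.616% lower, and 1 call in a list is not read as a result about that list.

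Other lists held no call by edgeR. Of 20 mesenchymal genes 0 were called and 7 had an unadjusted p under 0.05 (median 0.33), with FN1, fibronectin, at 1.61 ± 0.37 (SE, adjusted p = 0.0151). Of 47 nuclear genes of the respiratory chain 0 were called and 7 had such a p (median 0.02), of 18 oxygen-dependent demethylases 0 and 5 (median 0.04), of 11 collagen hydroxylases and lysyl oxidases 0 and 2 (median -0.01), of 28 interferon-stimulated genes 0 and 7 (median -0.10) and of 17 autophagy genes 0 and 1 (median 0.04). The smallest p in these lists were those of CYC1, a cytochrome of the respiratory chain, at -0.69 ± 0.14 (SE, adjusted p = 0.00847), which missed only the fold threshold, KDM7A, a histone demethylase, at 2.21 ± 0.58 (SE, adjusted p = 0.0272), P4HA3, a collagen hydroxylase, at -2.69 ± 0.99 (SE, adjusted p = 0.0913), OAS3, an antiviral enzyme, at -1.14 ± 0.25 (SE, adjusted p = 0.0121) and OPTN, an autophagy receptor, at -0.44 ± 0.17 (SE, adjusted p = 0.108). Of 5 metallothionein and zinc genes 0 were called and 4 had an unadjusted p under 0.05 (median -0.50), with MT2A at 1.15 ± 0.25 (SE, adjusted p = 0.0112). DESeq2 called FN1, KDM7A, OAS3 and MT2A, with adjusted p of 0.000905, 0.00141, 0.000611 and 0.000602. Of 9 abundant structural RNAs 0 were called and 0 had such a p (median 0.16), with RN7SK, a regulator of transcription elongation, at 0.44 ± 0.25 (SE, adjusted p = 0.266). Among cell type markers the smallest p were those of KRT18, a keratin, at 0.73 ± 0.18 (SE, adjusted p = 0.0179), CD68, a lysosomal protein of macrophages, at 0.22 ± 0.40 (SE, adjusted p = 0.765) and COL1A1, a collagen, at 1.29 ± 0.78 (SE, adjusted p = 0.301).

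The stem cell markers of the study were also compared. ALDH1A3 (chr15:100879831-100916625), an aldehyde dehydrogenase measured to define stem-like cells, had 117, 84 and 111 counts in sgControl in normoxia and 95, 70 and 67 in hypoxia. In sgXIST7 it had 8, 4 and 2 counts in normoxia and 40, 30 and 11 in hypoxia. It rose in sgXIST7 from a few counts and stayed under the CPM of sgControl, with an interaction of 3.12 ± 0.51 (SE, adjusted p = 0.00238). That call was lost in the fit of only the libraries compared. NES, the intermediate filament nestin, was at 18.1, 11.6 and 7.004 CPM in normoxia and 6.63, 3.87 and 3.01 CPM in hypoxia in sgControl. It was at 95.4, 92.02 and 88.2 CPM in normoxia and 54.9, 33.9 and 32.5 CPM in hypoxia in sgXIST7, lower in hypoxia in both clones and higher in sgXIST7 under both conditions. The interaction of NES was 0.24 ± 0.41 (SE, adjusted p = 0.749). CD24, a surface glycoprotein, had 16, 14 and 32 counts in sgControl in normoxia and 96, 148 and 25 in hypoxia. In sgXIST7 it had 3, 3 and 0 and 48, 22 and 7 counts, with the normoxia group at the floor, an adjusted p of 0.282 for the interaction and no fold given. CD24 has near-identical copies in the genome, so its counts are uncertain. CD44, an adhesion receptor, had at most 1 count in any library and was not tested.

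A few called genes had a group at or under 3 counts in each library, 4 of the 135 and 2 of the 92, and no fold is given for them, only counts and adjusted p-values. AKR1C3, a steroid-converting reductase whose close paralogs can share reads, had 9, 8 and 16 counts in sgControl in normoxia and 1, 2 and 0 in hypoxia. In sgXIST7 AKR1C3 had 10, 5 and 6 and 45, 65 and 28 counts (adjusted p = 1.91e-05). ZNF426, a zinc finger protein, had 12, 11 and 14 counts in sgXIST7 in normoxia and 1, 0 and 0 in hypoxia. In sgControl it had 5, 4 and 11 and 12, 13 and 5 counts (adjusted p = 0.00238, and 0.0133 without sgXIST7 hypoxia replicate 2). CILP2 went from 3, 1 and 3 to 99, 108 and 60 counts in sgControl and from 10, 9 and 14 to 73, 107 and 34 in sgXIST7 (adjusted p = 0.00876, up to 0.0307 without sgControl normoxia replicate 2).

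On the X chromosome, whose inactive copy XIST coats, 5 of 499 genes tested were called higher (1.00%) and 6 lower (1.20%), against 0.904% and 0.616% over all chromosomes.

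The response of sgXIST7 cells was also compared with that of the other XIST guide. XIST was less reduced in sgXIST9 cells, with 650, 1009 and 898 counts in normoxia, against 5, 4 and 1 in sgXIST7 cells. The part of this in the comparison was not tested. Between sgXIST7 and sgXIST9, 12 genes (0.0803%) had a higher response in sgXIST7 and 13 (0.087%) a lower one, and without the hypoxia libraries of replicate 3 the counts were 124 (0.812%) and 165 (1.08%). By contrast, 227 genes differed between sgXIST7 and sgControl while between sgXIST9 and sgControl 99 (0.663%) were higher and 52 (0.348%) lower, comparisons that share the sgControl libraries. The log2 response of ADM was 3.93 in sgXIST9, 4.53 in sgXIST7 and 0.17 in sgControl. For E2F1 the responses were -2.02, -2.50 and -1.10, for FOSL2 2.24, 0.97 and 3.87, and for TFRC 0.41, 1.38 and -0.07, in the same order.

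Differences from both other clones in the same direction were called for 9 genes. The sgXIST7 response was higher for TSPAN1, IER2, POU2F3, ERRFI1, SLC6A11, NMB and XK and lower for SEMA3F and WNT9A, and both tests use the same sgXIST7 libraries. Against sgControl, TSPAN1, IER2 and ERRFI1 were not called in every fit. ERRFI1 was at log2 0.9995, under the fold threshold, without the hypoxia libraries of replicate 3. Against sgXIST9, leaving out each library gave 5 to 66 higher and 1 to 62 lower genes, and single genes were not followed through these fits. All but IER2, POU2F3 and WNT9A were named after their values were seen. NMB (chr15:84655132-84658199), the peptide neuromedin B, went from 23.2, 21.2 and 20.2 to 103.7, 147.1 and 143.6 CPM in sgXIST7. It went from 17.2, 15.01 and 16.4 to 29, 26.4 and 26.8 CPM in sgControl and from 15.1, 13.5 and 11.9 to 21.4, 25.8 and 21.8 CPM in sgXIST9. Its sgXIST7 hypoxia values were the highest of the 18, with an interaction of 1.86 ± 0.19 (SE, adjusted p = 5.96e-05) and a difference from sgXIST9 of 1.84 ± 0.19 (SE, adjusted p = 0.000296). ERRFI1 (chr1:8011727-8026309), a feedback inhibitor of the EGF receptor, went in sgXIST7 from 764.6, 635.3 and 683.3 to 1094, 1038 and 1189 CPM. It was lower in hypoxia in sgControl (1244, 1183 and 1304 to 885.3, 1035 and 980.1 CPM) and in sgXIST9 (1235, 1329 and 1248 to 808, 895.8 and 835.9 CPM). TSPAN1, a tetraspanin, went from 14.1, 16.4 and 13.7 to 66.98, 119.2 and 97.7 CPM in sgXIST7, against 4.19, 2.68 and 4.43 CPM in sgControl and 12.8, 11.2 and 9.09 CPM in sgXIST9 in hypoxia. SEMA3F (chr3:50155058-50189075), a secreted axon guidance ligand, fell in sgXIST7 from 32.3, 29.5 and 27.9 to 6.78, 6.298 and 5.96 CPM. In hypoxia it was at 4.38, 4.86 and 5.32 CPM in sgControl and 4.51, 4.58 and 5.74 CPM in sgXIST9, and in normoxia at 8.05, 9.44 and 7.52 CPM and 8.35, 7.38 and 7.299 CPM. The sgXIST7 values were the highest under either condition, and farther from the others in normoxia. EPAS1, which was not called against sgControl, was called higher in sgXIST7 than in sgXIST9, by log2 1.69 (adjusted p = 0.00605).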

How the data were processed

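RNA of OVCAR3-KRAB cells was sequenced by the authors as stranded, paired-end total RNA libraries after removal of ribosomal RNA. Reads were trimmed with Trimmomatic, checked with FastQC, aligned to hg38 with HISAT2 and counted per gene with featureCounts. Versions are not given in the sources used here. The deposited file holds raw counts per gene and library. It lists 28277 genes, beside 2 broken lines with 0 counts that were left out. All else was computed from these counts. Replicate counts differed by more than sampling noise (chi-square per degree of freedom 3.86 to 76.9).

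Counts were fitted with edgeR 4.0.16 (R 4.3.3, limma 3.58.1): trimmed-mean (TMM) scaling, filterByExpr (count of at least 10, total of at least 15) and the robust quasi-likelihood test in 1 fit of 6 groups and 18 libraries. A gene was called at a Benjamini-Hochberg adjusted p under 0.01 and an absolute log2 value above 1. CPM are counts relative to the TMM-scaled library size. A group was at the floor when each library had 3 counts or fewer, and such floors cover counting error only. On simulated counts of the interaction (14832 genes), edgeR called 88 of 100 genes changed by a log2 of 2, 96 of 100 changed by 3 and 0 of 14632 unchanged genes. These counts were drawn independently for each library with the fitted spread, and only genes with higher counts were changed. No library deviated as sgControl hypoxia replicate 3 did. The called genes had smaller median interactions, 1.58 and -1.39, so the shares found do not carry over to the real data.

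The comparison, gene lists and named genes were chosen with earlier results of these data known. Named were XIST and the stem cell markers, the 12 largest interactions in each direction among called genes with a mean of at least 100 counts and no group at the floor, the called members of each list (or the one with the smallest p), 10 hypoxia genes, and the 2 called genes with the most counts in each direction among those with a group at the floor. Of these genes, 2 are not reported here. Alternatives were DESeq2 1.42.0, other scalings, filters and thresholds, fits of fewer libraries, a replicate block and each library left out in turn. Promoter sequences came from RefSeq (GRCh38.p14) and were matched by symbol.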

Additional observations from a re-analysis of the deposited data

Results flagged for a closer look

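Each result here was a difference between groups that passed the test of the difference itself. The hypoxia response of sgXIST7 cells differed from that of sgControl cells in 135 genes upward and 92 downward, and from that of sgXIST9 cells in 12 genes upward and 13 downward.

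Of the named genes, 20 had a higher response in sgXIST7 than in sgControl cells. Their interaction on the log2 scale was: ALDH1A3 3.12, ADM 4.36, SCG2 4.25, CRB1 3.99, MAP3K15 3.85, PRKAA2 3.17, MOXD1 3.14, C2orf72 3.05, CASKIN1 2.92, RAB26 2.85, P2RY1 2.80, RAB6B 2.62, POU2F3 2.62, GDF15 5.14, TM7SF2 1.24, CASP8 1.68, TJP3 2.09, IER2 1.13, TFRC 1.45 and SLC11A2 1.21. A lower response was called in 18, with a log2 interaction of: FOSL2 -2.90, MAFA -2.87, MDGA1 -2.68, MID1 -2.53, FGFR3 -2.45, MGAT4A -2.16, CARD9 -2.08, NFKBIZ -2.02, TTC7A -1.97, MAP3K8 -1.95, WNT9A -1.89, CRELD2 -1.07, SCD -1.75, E2F1 -1.40, MCM3 -1.26, CCNE2 -1.39, GINS4 -1.09 and TPX2 -1.02. For 4 more genes 1 group was at the floor of 3 counts per library and no fold is given. Their edgeR adjusted p-values were: EGR2 0.00874, AKR1C3 1.91e-05, CILP2 0.00876 and ZNF426 0.00238. Of these 42 genes, 19 were called under every alternative and 23 were not called under at least 1.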

How the results depend on the processing

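The counts of the interaction, 135 and 92, moved by more than 1.5 times under several settings. They were 367 and 339 at an adjusted p under 0.05, 288 and 261 with DESeq2, 53 and 26 with only the libraries compared, and 709 and 579 without the hypoxia libraries of replicate 3. Without a fold threshold the lower count was 147. Leaving out each library in turn gave 55 to 673 and 25 to 525, the lowest without sgXIST7 normoxia replicate 3 and sgXIST7 hypoxia replicate 2 and the highest without sgControl hypoxia replicate 3. For sgXIST7 against sgXIST9, with 12 and 13 genes, the counts were 54 and 76 at an adjusted p under 0.05, 78 and 77 with DESeq2, and 124 and 165 without the hypoxia libraries of replicate 3, the upward count was 22 without a filter, the downward count was 5 with only the libraries compared, and leaving out each library gave 5 to 66 and 1 to 62. The responses moved only without a fold threshold, to 2805 up and 2806 down in sgControl and 3517 and 3464 in sgXIST7. The causes were not tested.

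The labels do not say what a replicate number marks. Deviations from the group means correlated at -0.02 to 0.38 between same-numbered libraries of the 4 groups, above 0.1 in all 3 pairs only between the normoxia groups (0.148 to 0.379), so the numbers were not taken to pair the libraries, although 11 of 12 libraries correlated best, on average over the other groups, with their own number. With the number as a block, 219 and 152 genes were called in the interaction and 28 and 28 against sgXIST9, and SLC2A1 turned to 0.001.

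None of the 42 named called genes reversed under these settings. Of the uncalled, SLC2A1 turned to 0.004 without a filter and XIST to -0.25 without the hypoxia libraries of replicate 3. With 1 library left out, SLC2A1 ranged from -0.159 to 0.171, NDRG1 from -0.258 to 0.065, NES from -0.159 to 0.616, CD68 from -0.028 to 0.666, CA9 (1 group at the floor) from -0.885 to 2.485 and XIST (likewise) from -0.127 to 1.427. With a group at the floor these are fitted values and no bound. Other scalings moved no count by 1.5 times.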
